A study of Mus musculus with 2 samples.

Results

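Genes of the oviduct and of motile cilia were followed through 2 droplet libraries of mouse uterine cells. The set comprised 9 genes (Foxj1, Dnah5, Dnah6, Dynlrb2, Ccdc153, Tmem212, 1110017D15Rik, Cfap299 and Ovgp1) of the 32285 genes in the count tables. They were picked by symbol with measured values of these libraries known, and each was counted as unique molecular identifiers (UMIs) over all barcodes, by the number of the 9 genes found per barcode and by cell class. The levels of these genes in the libraries are therefore a description, and their difference between libraries supports nothing further. The DOX plus AMH library came from mice given doxorubicin at 3 mg/kg together with anti-Müllerian hormone (AMH) at 0.75 mg/kg, and the DOX library from mice given doxorubicin at 3 mg/kg alone. Doxorubicin is an anthracycline that damages DNA, and AMH is the hormone that makes the Müllerian ducts regress in male embryos. Both libraries are of the uterus 4 h after treatment, with organs of 5 animals pooled in each. Strain, genotype and estrous stage were not given in the sources used here, nor was where the uterus was cut from the oviduct. For a bulk experiment of the same series the design text names postnatal day 25 and 2 doses a week apart, and whether that holds for the animals used here is not stated.

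Multiciliated cells line much of the oviduct, where their beating cilia move eggs and fluid, and they alternate there with secretory cells that release the glycoprotein encoded by Ovgp1. Oviduct, uterus and upper vagina all arise from the Müllerian duct. A motile cilium is a ring of doublet microtubules around a central pair, and dynein arms between the doublets drive its beat. The transcription factor FOXJ1 and the RFX factors switch on the genes for these parts in cells that make motile cilia, whereas the intraflagellar transport genes also serve the single primary cilium that most cells carry.

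The 9 genes lie on 8 mouse chromosomes of the GRCm38 (mm10) build. Foxj1 (ENSMUSG00000034227), the regulator, is at chr11:116330704-116335399 on the minus strand. Dnah5 (ENSMUSG00000022262), a heavy chain of the outer dynein arm, is at chr15:28203752-28472052 on the plus strand, and Dnah6 (ENSMUSG00000052861), a heavy chain of the inner arm, at chr6:73017606-73221651 on the minus strand. Dynlrb2 (ENSMUSG00000034467), a dynein light chain of the roadblock type, is at chr8:116504974-116515915 on the plus strand. Ccdc153 (ENSMUSG00000070306), a subunit of the nexin-dynein regulatory complex that links neighbouring doublets, is at chr9:44240676-44247306 on the plus strand. Tmem212 (ENSMUSG00000043164), a membrane protein gene used as a ciliated cell marker, is at chr3:27866066-27896368 on the minus strand. Cfap299 (ENSMUSG00000057816), a cilia and flagella associated gene, spans chr5:98329304-98802047 on the plus strand, and 1110017D15Rik (ENSMUSG00000028441) spans chr4:41505009-41517333 on the minus strand. Ovgp1 (ENSMUSG00000074340), the oviduct glycoprotein, is at chr3:105973711-105987423 on the plus strand. The antisense gene Gm20560 overlaps Dnah6, and Gm11111 and 1700010H22Rik overlap Cfap299. These partners are also in the count table, and of them only Gm11111 lies on the same strand as its neighbour. Reads of Cfap299 could have been assigned differently where it overlaps Gm11111. Whether the partners on the opposite strand took reads was not examined.

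Promoter sequences from RefSeq (GRCm38.p6, 250 bases before to 50 after the start site) were matched for 7 of the 9 genes, with 8 promoters, and are shown because RFX factors and FOXJ1 are known regulators of such genes. Both strands were searched for the RFX half-sites GTTGCC and GTTACC, the RFX palindrome (GTTNCC followed after 3 bases by GNAAC) and the forkhead motif GTAAACA. The palindrome can overlap a half-site. The 4 promoters that held a motif follow, with each motif in capitals.

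Tmem212, chr3:27896319-27896618, minus strand: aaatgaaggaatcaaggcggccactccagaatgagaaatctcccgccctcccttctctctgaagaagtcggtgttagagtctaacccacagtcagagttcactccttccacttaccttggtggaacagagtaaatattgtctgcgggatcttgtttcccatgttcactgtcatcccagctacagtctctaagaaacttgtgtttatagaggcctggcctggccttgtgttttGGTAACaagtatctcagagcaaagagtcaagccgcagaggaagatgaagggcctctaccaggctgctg
1110017D15Rik, chr4:41507715-41508014, minus strand: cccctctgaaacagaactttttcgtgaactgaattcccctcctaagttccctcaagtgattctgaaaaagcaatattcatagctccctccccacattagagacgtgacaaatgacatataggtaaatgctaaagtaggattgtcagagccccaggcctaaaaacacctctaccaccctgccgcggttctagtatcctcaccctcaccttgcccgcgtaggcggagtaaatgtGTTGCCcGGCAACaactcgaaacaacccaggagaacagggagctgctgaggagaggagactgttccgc
Dynlrb2, chr8:116504765-116505064, plus strand: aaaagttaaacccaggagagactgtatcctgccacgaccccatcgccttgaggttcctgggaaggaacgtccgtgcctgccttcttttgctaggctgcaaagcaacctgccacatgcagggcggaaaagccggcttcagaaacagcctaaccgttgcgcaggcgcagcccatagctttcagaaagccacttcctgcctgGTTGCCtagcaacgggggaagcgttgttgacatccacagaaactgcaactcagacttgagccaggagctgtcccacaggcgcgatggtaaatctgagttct
Ccdc153, chr9:44240427-44240726, plus strand: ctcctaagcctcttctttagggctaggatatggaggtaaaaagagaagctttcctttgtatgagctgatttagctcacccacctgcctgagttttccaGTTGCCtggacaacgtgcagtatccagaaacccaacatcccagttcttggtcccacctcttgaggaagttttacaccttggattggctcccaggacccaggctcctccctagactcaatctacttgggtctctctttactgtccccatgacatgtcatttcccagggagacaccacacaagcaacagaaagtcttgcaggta

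The half-site GTTGCC was in 3 of the 8 promoters and GTTACC in 1 of them. The palindrome with its gap of 3 bases and the forkhead motif were in 0, and palindromes with other gaps were not searched. In Tmem212 the capitals read GGTAAC, which is GTTACC on the other strand, and they start 18 bases before the start site. In 1110017D15Rik a GTTGCC and its reverse GGCAAC stand next to each other, starting 18 and 11 bases before the start site. In Dynlrb2 the motif starts 51 bases before the start site and in Ccdc153 it starts 152 bases before it. The 1110017D15Rik pair, and the Dynlrb2 motif with the GCAAC shortly behind it, are inverted repeats with gaps shorter than 3 bases. Among 87 promoters of the motile cilia genes listed further on, 49.4% held GTTGCC, against 12.5% of all 32851 promoters in the table. The shares for GTTACC were 23.0% and 7.21%, those for the palindrome 10.3% and 0.804%, and those for GTAAACA 4.60% and 3.65%. A match is a run of letters and does not show that a factor binds.

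The 8083 barcodes of DOX plus AMH summed to 97887259 UMIs and the 9258 of DOX to 129530270 UMIs, with medians of 9397 and 12674.5 UMIs per barcode. The lowest total was 500 UMIs in both, so the deposited barcodes had already been filtered, and 17 barcode sequences occurred in both libraries. Levels are given in CPM, counts per 1000000 UMIs of a library or barcode set, where 1 UMI is 0.0102 CPM of the DOX plus AMH library and 0.00772 CPM of the DOX library. Ratios between the libraries are log2 values of the DOX plus AMH level divided by the DOX level. Since a group is 1 library, nothing was replicated and no test was made: the 95% intervals given (exact Poisson for counts, binomial for ratios and Clopper-Pearson for shares) cover counting error only. The trimmed-mean scaling (TMM) would lower every log2 ratio between the libraries by 0.16 and median-of-ratios scaling by 0.18, and the median of all genes in CPM was 0.15. Barcodes were gated into 10 classes by marker genes, or left ungated, and 190 DOX plus AMH and 403 DOX barcodes fell in the epithelial class.

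The 9 genes stood far higher in the DOX plus AMH library, and most of the UMIs of the cilia genes came from a handful of its barcodes. Together they had 9408 UMIs (96.1 CPM) in DOX plus AMH and 846 UMIs (6.53 CPM) in DOX, a log2 ratio of 3.88 (95% interval 3.78 to 3.98). At least 1 of the genes was found in 927 barcodes (11.5%) of DOX plus AMH and in 495 barcodes (5.35%) of DOX. At least 3 were found in 23 DOX plus AMH barcodes (0.285%, interval 0.180 to 0.427) and in 3 DOX barcodes (0.0324%, interval 0.00668 to 0.0947). Those barcodes carried 58.2% of the member UMIs in DOX plus AMH and 24.7% in DOX. At the top of the scale, 5 DOX plus AMH barcodes held all 9 genes and 4 held 8, against 0 DOX barcodes with more than 3. A minimum of 8 genes, set after these counts had been seen, therefore separated 9 DOX plus AMH barcodes (0.111%, interval 0.0509 to 0.211) and 0 DOX barcodes, for which a limit of 3 counts allows a share of up to 0.0324%.

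**Figure D1:**
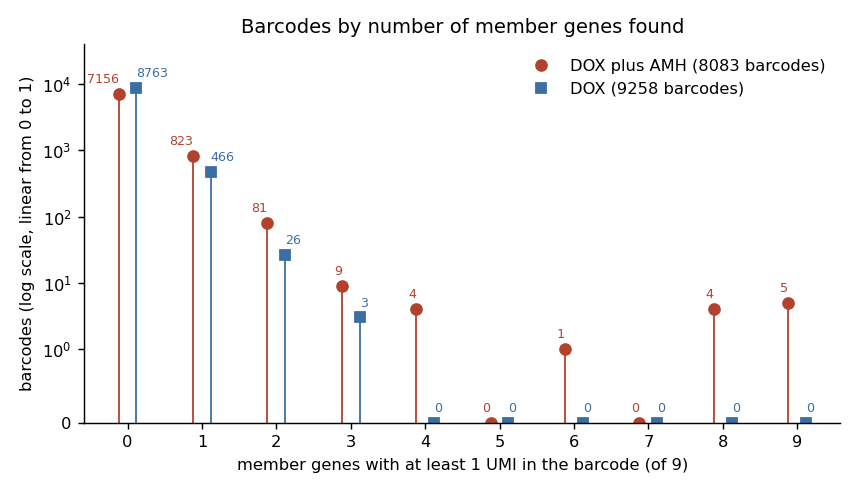
Number of barcodes (vertical axis, log scale, linear below 1) by how many of the 9 genes had at least 1 UMI in the barcode (horizontal axis), for DOX plus AMH (red circles) and DOX (blue squares). Counts fall from 7156 and 8763 barcodes with none of the genes to 9 and 3 barcodes with 3 genes, after which DOX stays at 0 while DOX plus AMH has a second group of 4 and 5 barcodes at 8 and 9 genes.

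Barcodes between the extremes were few, and most genes in them had under 10 UMIs. The barcode just below the minimum of 8 had 6 of the genes in 2430 UMIs, with 12 UMIs of Dynlrb2, 8 of Ovgp1, 6 of 1110017D15Rik, 2 of Tmem212 and 1 each of Foxj1 and Ccdc153. A further DOX plus AMH barcode of 3981 UMIs had 4 genes (Dnah5 10 UMIs, Cfap299 7, Dnah6 5 and Tmem212 4), along with 51 of the 92 listed cilia genes. Other DOX plus AMH barcodes in this range carried markers of other classes with few member UMIs. Of these, 1 of 126254 UMIs had 9 member UMIs beside 522 UMIs of lymphatic endothelial markers. Mesothelial, vascular endothelial and stromal barcodes with 3 genes had 3 member UMIs each. A barcode of 1601 UMIs with 4 genes had 53.8% mitochondrial UMIs. The 3 DOX barcodes with 3 genes differed from one another: 1 of 66975 UMIs held 6 UMIs of Cfap299 and 1 each of Foxj1 and Ovgp1, 1 of 33204 UMIs held 195 of Ovgp1, 2 of Dynlrb2 and 1 of 1110017D15Rik, and 1 of 11655 UMIs held 1 each of 1110017D15Rik, Dnah6 and Cfap299. Among barcodes with 0, 1 and 2 of the genes, median totals were 9117.5, 12034 and 18471 UMIs in DOX plus AMH and 12485, 17456 and 40800.5 UMIs in DOX. Beyond that, median depth did not rise steadily with the number found, but it was highest at 9 genes. In DOX plus AMH it was 16166 UMIs at 3 genes, 2791 at 4, 2430 at 6, 16368.5 at 8 and 124792 at 9. In DOX it was 33204 at 3 genes. After each barcode was thinned to 2000 UMIs, which left out 769 DOX plus AMH and 1352 DOX barcodes, a member UMI remained in 230 of 7314 DOX plus AMH barcodes (3.14%, interval 2.76 to 3.57) and in 75 of 7906 DOX barcodes (0.949%, interval 0.747 to 1.19). At least 6 of the genes were still found in 9 thinned DOX plus AMH barcodes and in 0 thinned DOX barcodes.

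The regulator Foxj1 had 319 UMIs (3.26 CPM) in DOX plus AMH and 38 UMIs (0.293 CPM) in DOX, a log2 ratio of 3.47 (2.99 to 4.00). The 9 barcodes with 8 or 9 genes held 80.6% of its DOX plus AMH UMIs, with up to 52 in a single barcode, while no DOX barcode had more than 6. Over all genes with at least 20 UMIs in both libraries together, 9.89% were higher by 2-fold or more and 1.57% lower by as much in DOX plus AMH. All 9 of the genes were at least 2-fold higher, which the choice of the genes had fixed.

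Among the dynein genes, Dnah5 had 1143 UMIs (11.7 CPM) in DOX plus AMH and 61 UMIs (0.471 CPM) in DOX, a log2 ratio of 4.63 (4.26 to 5.03). Dnah6 had 493 UMIs (5.04 CPM) in DOX plus AMH and 37 UMIs (0.286 CPM) in DOX, a log2 ratio of 4.14 (3.66 to 4.66). Dynlrb2 had 592 UMIs (6.05 CPM) in DOX plus AMH and 19 UMIs (0.147 CPM) in DOX, a log2 ratio of 5.37 (4.71 to 6.11). The 3 dynein genes differed in how concentrated they were: the 9 barcodes held 85.8% of Dynlrb2, 81.5% of Dnah6 and 49.96% of Dnah5 UMIs. The related cytoplasmic dynein genes Dync1h1, Dynll1 and Dynlrb1, which serve transport in all cells, included 0 genes that were 2-fold apart between the libraries, with a median log2 ratio of 0.03.

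Ccdc153 had 672 UMIs (6.87 CPM) in DOX plus AMH and 10 UMIs (0.0772 CPM) in DOX, a log2 ratio of 6.47 (5.59 to 7.54). Tmem212 had 955 UMIs (9.76 CPM) in DOX plus AMH and 17 UMIs (0.131 CPM) in DOX, a log2 ratio of 6.22 (5.53 to 7.0). Both genes lay almost wholly in the 9 barcodes, with 91.7% of the UMIs for Ccdc153 and 93.1% for Tmem212. 1110017D15Rik had 496 UMIs (5.07 CPM) in DOX plus AMH and 93 UMIs (0.718 CPM) in DOX, a log2 ratio of 2.82 (2.50 to 3.16). Cfap299 had 715 UMIs (7.30 CPM) in DOX plus AMH and 208 UMIs (1.61 CPM) in DOX, a log2 ratio of 2.19 (1.96 to 2.42). These last genes were the most widely scattered of the cilia genes in DOX, found in 81 barcodes for 1110017D15Rik and 147 for Cfap299, and had the smallest ratios of the 9. Ovgp1 had 4023 UMIs (41.1 CPM) in DOX plus AMH and 363 UMIs (2.80 CPM) in DOX, a log2 ratio of 3.87 (3.72 to 4.03).

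The remaining ratios were smaller once the richest barcodes were set aside. Without the 9 barcodes of 8 or 9 genes, the 9 genes together stood at 43.1 CPM in DOX plus AMH and 6.53 CPM in DOX, a log2 ratio of 2.72. With the barcodes of at least 10 Ovgp1 UMIs left out as well, they stood at 17.9 CPM in DOX plus AMH and 5.00 CPM in DOX, a log2 ratio of 1.84. At this second step Foxj1 had 62 UMIs in DOX plus AMH and 38 in DOX, Tmem212 had 66 and 17, Ccdc153 55 and 10, Dynlrb2 83 and 17, and Dnah6 90 and 37. Cfap299 was closest between the libraries, with 242 UMIs in DOX plus AMH and 208 in DOX and a log2 ratio of 0.64 (0.37 to 0.92). Without the 9 barcodes alone, 8 of the 9 genes were still at least 2-fold higher in DOX plus AMH, among 8.79% of all genes, and 1.63% of all genes were at least 2-fold lower.

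**Figure D2:**
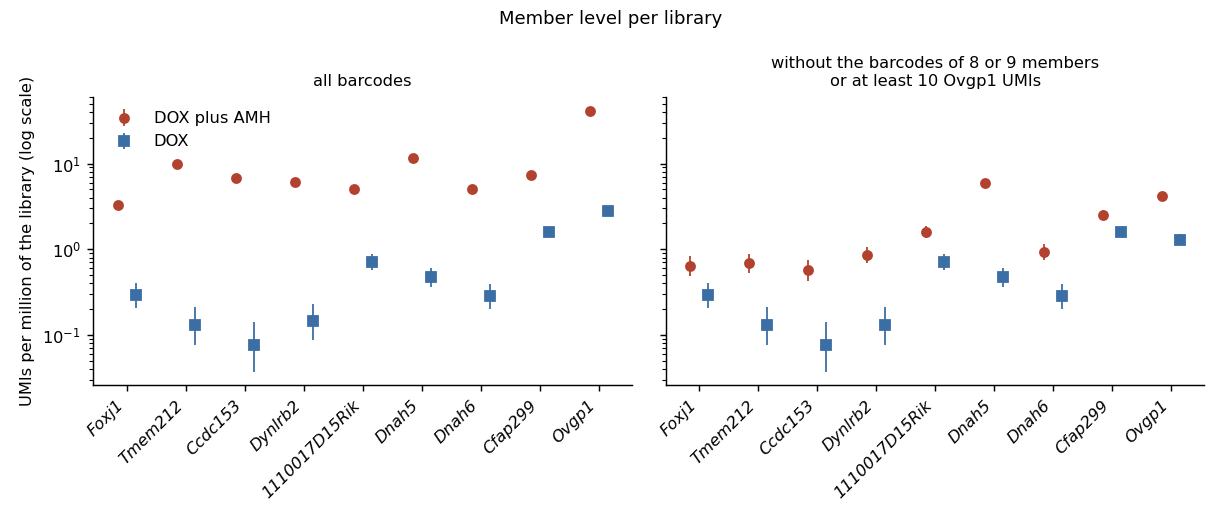
Level of each gene in CPM of its library (vertical axis, log scale) for DOX plus AMH (red circles) and DOX (blue squares), over all barcodes (left) and without the barcodes of 8 or 9 member genes or at least 10 Ovgp1 UMIs (right). Lines are exact 95% Poisson intervals, some hidden by the markers. The gap for Tmem212 shrinks to 0.683 against 0.131 CPM in the right panel, and that for Dnah5 stays wide, at 5.92 against 0.471 CPM.

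The 9 barcodes of 8 or 9 genes, all of the DOX plus AMH library and called cilia-rich here, carried the cilia genes in many copies. Their totals were 137471, 125566, 124792, 68677 and 21084 UMIs for the 5 with all 9 genes, and 52987, 22049, 10688 and 10273 UMIs for the 4 that lacked Ovgp1. In that order Foxj1 had 44, 52, 48, 24 and 13 UMIs in the barcodes with all 9 genes and 47, 14, 7 and 8 in the others. Tmem212 had 175, 108, 163, 84 and 48 UMIs in the barcodes with all 9 genes, and 150, 41, 71 and 49 in the others. The counts broadly followed the totals, with the shallow barcodes lowest, so levels within a barcode are better compared per 10000 of its UMIs. On that scale Foxj1 ranged from 3.20 to 8.87 with a median of 6.17, and Tmem212 from 8.60 to 66.4 with a median of 18.6. Dnah5 ranged from 2.85 to 18.1 (median 9.32), Dnah6 from 3.05 to 10.7 (median 8.30) and Dynlrb2 from 5.81 to 23.4 (median 14.2) per 10000 UMIs. Foxj1 thus varied 2.77-fold and Tmem212 7.72-fold between these barcodes. Ccdc153 ranged from 8.36 to 26.2, 1110017D15Rik from 3.85 to 16.5 and Cfap299 from 3.74 to 17.2 per 10000 UMIs.

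Ovgp1 split the 9 barcodes. It had 628, 165, 199, 140 and 32 UMIs in the 5 barcodes that held it and 0 in the 4 that did not, of which the deepest had 52987 UMIs. Its highest count, in the barcode of 137471 UMIs, corresponded to 45.7 per 10000 UMIs.

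**Figure D3:**
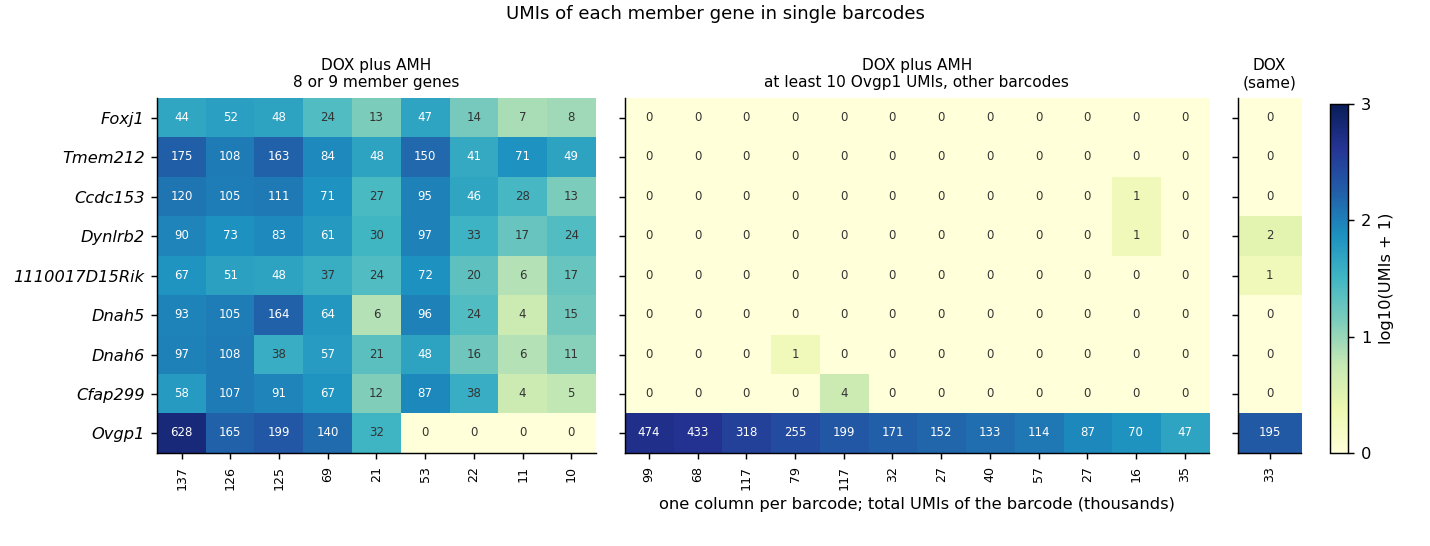
UMIs of each gene (rows) in single barcodes (columns, labelled with the barcode's total, rounded to 1000 UMIs), coloured by log10(UMIs + 1). From left to right are the 9 DOX plus AMH barcodes with 8 or 9 genes, the 12 other DOX plus AMH barcodes with at least 10 Ovgp1 UMIs, and the 1 such DOX barcode. The left block is filled in 8 rows, with Ovgp1 at 0 in its last 4 columns, while the other blocks are filled only along the Ovgp1 row, apart from single cells of 1 to 4 UMIs.

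The 9 barcodes carried markers of epithelium, at lower levels than the rest of that class. Each had 6 to 9 of the 9 epithelial markers, 8 of the 9 fell in the epithelial class, and Epcam, the epithelial adhesion molecule, stood at 506 CPM in them together. The 9 epithelial markers summed to 1987 CPM in them and 3177 CPM in the other DOX plus AMH epithelial-class barcodes, and 2 of the 9 were at least 2-fold lower. The ninth, of 68677 UMIs, was left ungated, because it also held 171 UMIs of stromal markers with 7 of 7 found. All 7 stromal markers were at least 2-fold higher in the 9 barcodes, summing to 410 CPM against 134 CPM in the other epithelial-class barcodes, and to 127 CPM without that barcode. Mitochondrial UMIs made up 5.19 to 8.08% of the totals, and Scrublet gave scores of 0.0327 to 0.0654, below the threshold that marked 327 DOX plus AMH and 396 DOX barcodes as doublets. Their totals stood at the 56.4th to 99.8th percentile of the library's depth. Of the epithelial class, they made up 8 of 190 barcodes (4.21%, interval 1.84 to 8.13) in DOX plus AMH and 0 of 403 in DOX, for which a limit of 3 counts allows up to 0.744%. Of 7 ovarian markers 5 were found in them, summing to 20.9 CPM with 4 UMIs of Inha and 5 of Zp3, while the oocyte gene Gdf9 and the granulosa cell gene Fshr were at 0.

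The motile cilia machinery as a whole was present in these barcodes. A list of 92 genes in 7 groups, which leaves out the 9 genes, was set against the other 171 epithelial-class barcodes of the same library that had fewer than 8 of the genes and under 10 Ovgp1 UMIs. Because the 9 barcodes were chosen for cilia genes, these values describe them and test nothing. Between 60 and 89 of the 92 genes were found in each barcode (median 87), and together they made up 1.55 to 3.25% of a barcode's UMIs. Of 85 genes with at least 20 UMIs in both sets together, 84 were at least 2-fold higher in the 9 barcodes and 0 at least 2-fold lower, with a median log2 ratio of 7.46, whereas 20.4% of all 12968 genes compared were higher by 2-fold or more and 13.6% lower by as much. For 46 of the 92 genes, over 50% of all UMIs in the library lay in these 9 barcodes.

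Among the regulators of multiciliation, Trp73, which encodes p73, stood at 45.3 CPM in the 9 barcodes and 0.139 CPM in the other epithelial-class barcodes, and the geminin relative Gmnc at 31.4 and 0.694 CPM. The ciliary gene regulators Rfx2 and Rfx3, which are also used for primary cilia, stood at 138 and 312 CPM in the 9 barcodes against 15.1 and 55.8 CPM in the others. Myb, a regulator of the early steps of multiciliation, was 68.0 CPM in the 9 barcodes and 41.4 CPM in the others, a log2 ratio of 0.72 (0.20 to 1.20), and was the listed gene of this group below 2-fold. Mcidas and Cdc20b, which act while centrioles are being multiplied, had 0 UMIs in the 9 barcodes and 0 in the other epithelial-class barcodes. Ccno had 6 UMIs (10.5 CPM) in the 9 barcodes and 0 in the others. Deup1 had 10 UMIs (17.4 CPM) in the 9 barcodes and 1 UMI (0.139 CPM) in the others.

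By median, structural genes of the axoneme differed more than the regulators, whose median log2 ratio was 3.19 over the 5 with at least 20 UMIs. Those 5 regulators ranged widely, from 0.72 for Myb to 5.50 for Gmnc and 8.35 for Trp73. All 14 dynein arm genes were at least 2-fold higher in the 9 barcodes, with a median log2 ratio of 8.08. Dnah12, an inner arm heavy chain, stood at 853 CPM in them and 32.3 CPM in the other epithelial-class barcodes, and Dnah9, an outer arm heavy chain, at 472 and 0.416 CPM. All 9 arm assembly and docking genes were higher (median 6.43), Armc4 and Lrrc6 with 256 and 164 CPM in the 9 barcodes against 0.139 and 1.11 CPM in the others. All 15 radial spoke and central pair genes were higher (median 7.46), and Hydin and Spag17, both of the central pair, stood at 560 and 417 CPM in the 9 barcodes against 1.80 and 0.416 CPM in the others. The 9 nexin-dynein regulator and ruler genes had a median of 7.07, with the ruler genes Ccdc39 and Ccdc40 at 268 and 248 CPM in the 9 barcodes against 1.53 and 1.94 CPM in the others. For the 12 microtubule inner protein and tektin genes with enough UMIs the median was 6.77, and Enkur and Mns1 had 422 and 169 CPM in the 9 barcodes against 6.25 and 9.30 CPM in the others. Sntn, whose product lies at the tip of motile cilia, belonged to the 21 remaining markers (median 8.39) and stood at 614 CPM in the 9 barcodes and 0.972 CPM in the others.

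Genes shared with the primary cilium differed less. All 24 intraflagellar transport and primary cilium genes were at least 2-fold higher in the 9 barcodes than in the other epithelial-class barcodes, with a median log2 ratio of 2.16 and values of 3.26 for Ift88, 2.70 for Dync2h1 and 1.73 for Ift20. None of the 24 had over 50% of its library UMIs in the 9 barcodes, and the median share was 2.64%. Of the cytoplasmic dynein genes 1 of 3 was at least 2-fold higher: Dynll1 stood at 1090 CPM in the 9 barcodes and 293 CPM in the others, Dynlrb1 at 131 and 102 CPM, and Dync1h1 at 126 and 116 CPM.

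**Figure D4:**
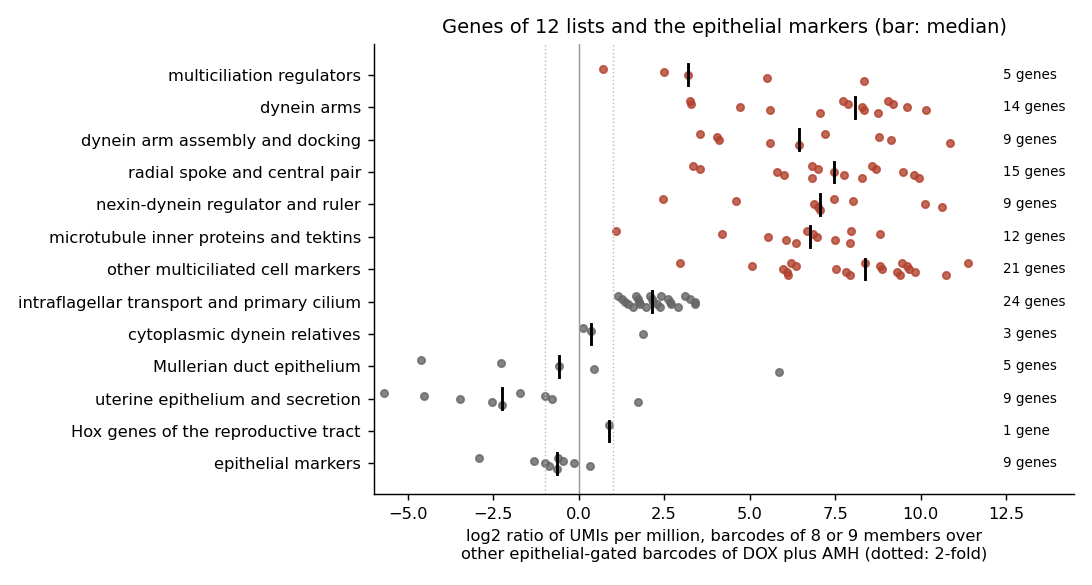
Log2 ratio of CPM (horizontal axis) in the 9 DOX plus AMH barcodes with 8 or 9 genes over the other epithelial-class barcodes of that library, 1 point per gene with at least 20 UMIs, grouped by list, with black bars at the medians and dotted lines at 2-fold. Genes at 0 in a set are drawn at a floor of 3 counts. The 7 motile cilia lists (red) have medians of 3.19 to 8.39, the intraflagellar transport list 2.16, and the uterine, Müllerian and epithelial lists have medians below 0.

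Which genes followed the same barcodes most closely was read from the ratio of CPM in the 23 DOX plus AMH barcodes with at least 3 of the genes over all others. Of 8100 genes ranked, 1700024G13Rik came first, with 190 UMIs in the 23 barcodes and 4 elsewhere, or 97.9% of its UMIs inside. Fam216b followed with 131 UMIs inside and 5 elsewhere, and Sox3, a SOX-family transcription factor gene, with 76 inside and 4 elsewhere. The first 12 also held Tmem212 and Ccdc153 from the 9 genes, whose ranks follow partly from the choice of barcodes by those genes. They further held the listed cilia genes Sntn, Drc7 and Fam183b, and C230072F16Rik, Speer4c, Gm19935 and Zfp474. Each of the 12 had 91.8 to 97.9% of its UMIs inside. In DOX, where the 3 barcodes with at least 3 genes rest mostly on the Ovgp1-rich barcode, the first was Wfdc18 with 50 UMIs inside and 37 elsewhere, then Ovgp1 with 196 and 167.

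Beside the cilia-rich barcodes, a separate set of barcodes, called Ovgp1-rich here, carried Ovgp1 with almost no UMIs of the cilia genes. With a minimum of 10 Ovgp1 UMIs, chosen after the values had been seen, 12 further DOX plus AMH barcodes and 1 DOX barcode stood apart. In the 12, Ovgp1 ranged from 47 to 474 UMIs with a median of 161.5, or 13.4 to 63.4 per 10000 UMIs. Over the 12 together, Foxj1, Tmem212, 1110017D15Rik and Dnah5 had 0 UMIs, Ccdc153, Dynlrb2 and Dnah6 had 1 each and Cfap299 had 4. Between 5 and 15 of the 92 listed cilia genes were found in each, at 0.0272 to 0.0619% of the UMIs. Of the 12, 11 fell in the epithelial class, and 1, of 16166 UMIs, was above the doublet threshold. They made up 11 of 190 epithelial-class barcodes (5.79%) in DOX plus AMH and 1 of 403 (0.248%) in DOX. The DOX barcode had 195 Ovgp1 UMIs in 33204, or 58.7 per 10000, which lies within the range of the 12. It also held 96 UMIs of lymphatic endothelial markers, with 5 of 5 found and 67 of them from Ccl21a, beside 26 UMIs of Epcam, and had a doublet score of 0.173, just under the threshold of 0.191. Together the 17 DOX plus AMH barcodes with at least 10 Ovgp1 UMIs, cilia-rich or not, held 89.9% of that library's Ovgp1 UMIs, and 338 DOX plus AMH and 148 DOX barcodes had at least 1.

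The cilia-rich, the Ovgp1-rich and the other epithelial-class barcodes differed in genes of duct and uterine epithelium. Wt1, a transcription factor gene of the gonad, mesothelium and Müllerian mesenchyme, stood at 284 CPM in the 9 cilia-rich barcodes, 25.1 CPM in the 12 Ovgp1-rich ones, 4.86 CPM in the other DOX plus AMH epithelial-class barcodes and 5.16 CPM in the other DOX ones. Pax2 and Sox17, transcription factor genes of the Müllerian epithelium, stood at 8.72 and 57.5 CPM in the cilia-rich barcodes against 208 and 328 CPM in the Ovgp1-rich ones. Their levels in the other epithelial-class barcodes were 213 and 276 CPM in DOX plus AMH and 184 and 257 CPM in DOX. Pax8, of the same family as Pax2, was 95.9 CPM in the cilia-rich, 191 CPM in the Ovgp1-rich and 142 CPM in the other DOX plus AMH barcodes, and Emx2, a homeobox gene of the urogenital tract, 129, 144 and 94.3 CPM. Of the 5 Müllerian genes measured, Wt1 was at least 2-fold higher in the cilia-rich than in the other DOX plus AMH barcodes and Pax2 and Sox17 at least 2-fold lower, with a median log2 ratio of -0.56. All 5 Pax2 UMIs of the cilia-rich set came from the barcode of 137471 UMIs. In the Ovgp1-rich set, Wt1 was 12.9 CPM without the barcode of 16166 UMIs that was above the doublet threshold.

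Uterine epithelial genes were mostly lower in the cilia-rich barcodes. Of 9 genes, 6 were at least 2-fold lower and 1 higher than in the other epithelial-class barcodes, with a median log2 ratio of -2.23. Msx1, a homeobox gene of the uterine lining, was 12.2 CPM in the cilia-rich barcodes, 78.2 CPM in the Ovgp1-rich, 630 CPM in the other DOX plus AMH and 471 CPM in the other DOX barcodes. Wnt7a, which patterns the female tract, had 0 UMIs in the cilia-rich barcodes and stood at 69.8 CPM in the Ovgp1-rich, 58.2 CPM in the other DOX plus AMH and 97.0 CPM in the other DOX barcodes. Ltf, the oestrogen-regulated gene of lactoferrin, was 52.3 CPM in the cilia-rich and 721 CPM in the Ovgp1-rich barcodes, against 304 CPM in the other DOX plus AMH and 173 CPM in the other DOX barcodes. Foxa2, a regulator of uterine glands, was the gene that stood higher, with 85.4 CPM in the cilia-rich, 0 UMIs in the Ovgp1-rich, 25.8 CPM in the other DOX plus AMH and 13.9 CPM in the other DOX barcodes. The oestrogen receptor gene Esr1 and the progesterone receptor gene Pgr were 739 and 106 CPM in the cilia-rich barcodes against 1276 and 350 CPM in the other DOX plus AMH ones. Without the ungated barcode of 68677 UMIs, Pgr in the cilia-rich set was 67.3 CPM. Hoxa10 and Hoxa11, Hox genes of the developing uterus, were low in these sets: Hoxa10 was 6.97 CPM in the cilia-rich, 14.0 CPM in the Ovgp1-rich and 3.75 CPM in the other DOX plus AMH barcodes, resting on 4 UMIs in the cilia-rich and 10 in the Ovgp1-rich set.

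**Figure D5:**
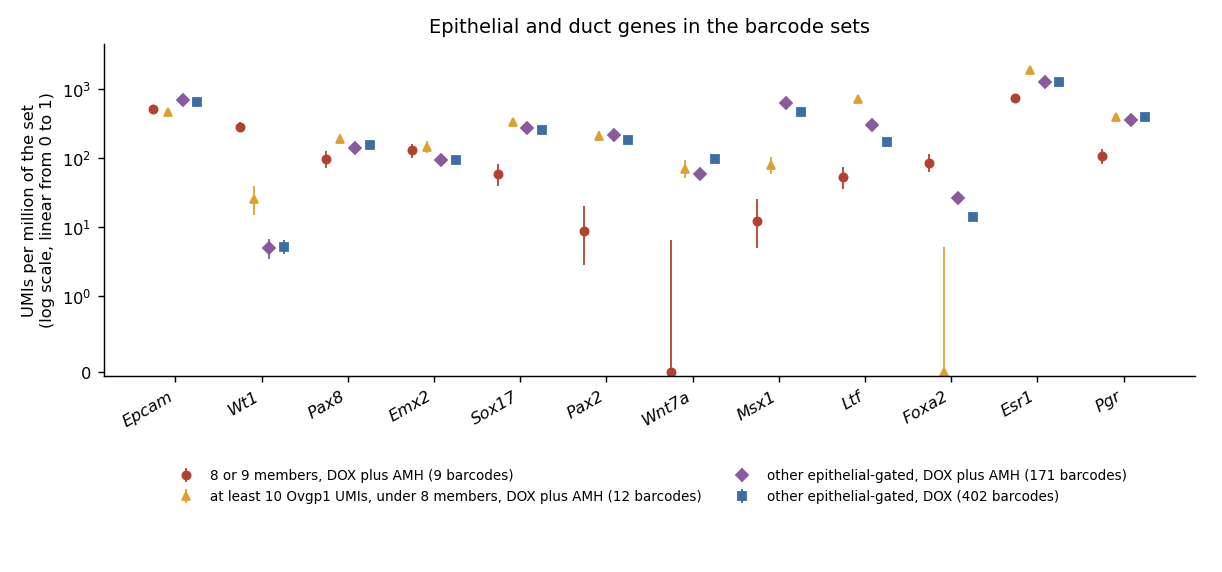
CPM (vertical axis, log scale, linear below 1) of 12 epithelial, Müllerian and uterine genes in the 9 DOX plus AMH barcodes with 8 or 9 members (red circles), the 12 with at least 10 Ovgp1 UMIs and fewer than 8 members (orange triangles), the other 171 epithelial-class barcodes of DOX plus AMH (purple diamonds) and the other 402 of DOX (blue squares). Lines are exact 95% Poisson intervals. Wt1 is highest in the first set at 284 and Ltf in the second at 721 CPM.

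Some genes outside the lists, chosen after their values were seen, also separated the sets. Timp4, an inhibitor of matrix proteases, stood at 418 CPM in the cilia-rich barcodes and 1.40 CPM in the Ovgp1-rich ones. Calb1, which encodes the calcium-binding protein calbindin, showed the opposite, with 6.97 CPM in the cilia-rich and 1180 CPM in the Ovgp1-rich barcodes, against 104 CPM in the other DOX plus AMH and 41.5 CPM in the other DOX barcodes. Rtn1 and Cacna2d3 followed Calb1, with 27.9 and 22.7 CPM in the cilia-rich and 296 and 376 CPM in the Ovgp1-rich barcodes. Without the barcode that moved them most, the cilia-rich levels were 17.3 CPM for Rtn1 and 11.1 CPM for Cacna2d3. Within the cilia-rich barcodes, the 5 with Ovgp1 and the 4 without differed too: Wt1 was 318 CPM in the 5 and 115 CPM in the 4, Pax8 111 and 20.8 CPM, and Wfdc18 668 and 10.4 CPM. Of the 319 Wfdc18 UMIs in the 5, 230 came from the barcode of 137471 UMIs, and the level was 262 CPM without it. Wt1 in the 4 rested on 11 UMIs, of which 7 came from the barcode of 52987 UMIs, and was 93.0 CPM without that barcode. In the 4 barcodes together 3 counts are 31.3 CPM, so values under that rest on fewer than 3 UMIs. Wfdc18 was also 472 CPM in the other DOX plus AMH and 0.315 CPM in the other DOX barcodes of the epithelial class, so it was not limited to barcodes with cilia genes.

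Dnah5 stood out among the cilia genes for UMIs away from the cilia-rich barcodes. Outside them it had 572 UMIs in 131 DOX plus AMH barcodes and 61 UMIs in 51 DOX barcodes, and made up 43.0% of the UMIs of the 8 cilia genes outside the 9 barcodes, against 14.1% inside them. Tmem212 had the opposite balance, with 4.96% outside and 21.9% inside, and so did Ccdc153, with 4.21% outside and 15.2% inside. In DOX Cfap299 took the largest share, 43.1%, and Dnah5 12.6%. The 8 cilia genes were thus not in 1 fixed ratio inside and outside the cilia-rich barcodes.

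A set of 19 DOX plus AMH barcodes with at least 10 Dnah5 UMIs each, a minimum chosen after the values were seen, held 69.2% of the 572 UMIs, and no DOX barcode reached 5. Dnah5 ranged from 10 to 58 UMIs in them, Foxj1 was at 0 in all 19 and Tmem212 was found in 2. Most of them had marker genes of stratified and simple epithelium: Krt5, a keratin of basal cells, and Krt13, a keratin of stratified epithelium, were each found in 17 of the 19, and Epcam in 16. Their summed squamous markers ranged from 1 to 1934 UMIs with a median of 216, and their epithelial markers from 0 to 345 UMIs with a median of 135. By class, 6 were squamous, 2 epithelial and 11 ungated. Among the ungated, those of 4081, 3263 and 3981 UMIs had no Epcam and 1 squamous marker UMI each. The last of these is the barcode described above with 51 of the 92 listed cilia genes. The squamous class held 461 barcodes in DOX plus AMH and 6 in DOX, and outside the 9 cilia-rich barcodes the 6 squamous markers summed to 2231 CPM in DOX plus AMH and 20.4 CPM in DOX, with each of the 6 found in both. The part of this difference in the Dnah5 result was not tested. Dnah5 in the squamous class was 12.8 CPM in DOX plus AMH and 0 in DOX, where the class held 6 barcodes and 148815 UMIs, so that such a level was not detectable at this depth. In epithelial-class barcodes without the cilia-rich and Ovgp1-rich ones, Dnah5 was 10.97 CPM in DOX plus AMH and 0.252 CPM in DOX. In stromal barcodes it was 0.879 CPM in DOX plus AMH and 0.315 CPM in DOX.

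UMIs of the 9 genes also occurred outside these barcode sets. With the cilia-rich and Ovgp1-rich barcodes left out, 8 classes, ungated included, had at least 50 barcodes in each library. The genes' summed level was higher in DOX plus AMH in all 8, and the intervals, of counting error only, were apart in 6. As the genes were chosen with values of these libraries known, a shared direction supports nothing further. The levels of these 8 classes spanned 9.65 to 53.3 CPM in DOX plus AMH and 2.32 to 12.3 CPM in DOX. The highest was the ungated class of DOX plus AMH, where 246 of 457 member UMIs were Dnah5, found in 2.49% of its barcodes. The 6 squamous and 12 glial barcodes of DOX had 0 member UMIs. In blood-derived cells, which should lack motile cilia and oviduct secretion, the summed level was 9.65 CPM in DOX plus AMH and 2.32 CPM in DOX. A member UMI was in 8.0% and 1.97% of these barcodes, at median depths of 7772 and 7539 UMIs. Stromal barcodes were at 10.7 CPM in DOX plus AMH and 4.11 CPM in DOX, and smooth muscle at 12.9 and 6.26 CPM. The stromal level was 1.08 CPM above the blood-derived level in DOX plus AMH and 1.80 CPM above it in DOX, with overlapping intervals. In DOX plus AMH these were 6.83 to 13.2 CPM for blood-derived and 9.78 to 11.8 CPM for stromal barcodes. In DOX they were 1.11 to 4.26 CPM and 3.69 to 4.57 CPM. Epithelial-class barcodes were at 28.2 CPM in DOX plus AMH and 6.42 CPM in DOX on the same count, and at 819 and 18.8 CPM with every barcode included. Foxj1 in epithelial-class barcodes outside the cilia-rich and Ovgp1-rich ones was 0.972 CPM (7 UMIs) in DOX plus AMH and 1.39 CPM (22 UMIs) in DOX. In mesothelial barcodes Foxj1 was 6.56 CPM (16 UMIs) in DOX plus AMH and 0.712 CPM (1 UMI) in DOX. Both Foxj1 comparisons rest on few UMIs. Free RNA from broken cells was not measured, and its part in these low levels was not tested.

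Over whole libraries the other motile cilia genes were less concentrated in the 9 barcodes, which held a median of 48.2% of their UMIs, against 80.6% for the 9 genes. The barcodes had been chosen by those same 9 genes, so a higher share for them was built in. Of the 92 listed genes 57 were higher by 2-fold or more and 0 lower by as much in DOX plus AMH, with a median log2 ratio of 1.37, beside 9.89% and 1.57% of all genes. Without the 9 cilia-rich barcodes, 17 of 90 were higher and 1 lower, with a median of 0.41, beside 8.79% and 1.63%. Without them the direction also turned for 12 of 91 genes, all from higher to lower in DOX plus AMH. As barcodes rich in cilia genes were taken from DOX plus AMH only, that direction was built in. Among the 12 were Hydin, with 88 UMIs in DOX plus AMH and 163 in DOX (-0.48), and Dnaaf1, with 6 and 19 (-1.25). Some turns were small or rested on few UMIs, such as Lrrc23 (-0.09) and Drc7, with 5 UMIs in DOX plus AMH and 8 in DOX. Summed over all barcodes but those 9, the 92 genes stood at 409.97 CPM in DOX plus AMH, and in DOX, without its 1 Ovgp1-rich barcode, at 388 CPM. A few widely expressed genes weigh heavily in these sums. Rfx3 was 91.1 CPM in DOX plus AMH without those 9 and 72.0 CPM in DOX, and Tppp3 was 57.4 and 95.1 CPM. Sntn had 385 UMIs in DOX plus AMH and 2 in DOX (log2 ratio 7.99), and Fam183b 331 and 11 (5.32). Trp73 differed from these: it had 285 UMIs in DOX plus AMH and 15 in DOX (4.65), but 259 of the 285 lay outside the 9 barcodes, and p73 is also known from other epithelia. At the other end, Myb had 624 UMIs in DOX plus AMH and 1472 in DOX (-0.83), and Tppp3, which labels cilia but also stromal cells of the uterus, 5868 and 12316 (-0.67). The 24 intraflagellar transport genes included 0 that were 2-fold apart, with a median of 0.10.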

How the data were processed

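Per the labels' protocols, 5 uteri per group were pooled and digested with collagenase A and papain, and each pool gave 1 droplet library (10x Genomics, 3′ kit, v3.1). The authors deposited raw UMI counts per gene and barcode, made with Cell Ranger 7.0.0 and mm10 per the submitters' processing notes. Whether intronic reads were counted is not given in the sources used here.

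Every deposited barcode was used. Markers were log-transformed per 10000 UMIs, scaled to and capped at their 99th percentile, and a barcode was put in the class with the highest mean when this reached 0.1 and was 1.3 times the next, and was otherwise left ungated. UMIs were summed per library, class or barcode set and scaled to CPM over all genes (Python 3.11.15, numpy 2.4.6, scipy 1.17.1, pandas 2.3.3). Ratios have exact binomial intervals, levels exact Poisson and shares Clopper-Pearson intervals at 95%. A set at 0 was given a floor of 3 counts. Genes were called at 2-fold among those with at least 20 UMIs. Doublets were scored with Scrublet in scanpy 1.11.5. Its own threshold marked 0 of 7065 barcodes in DOX plus AMH, so the DOX threshold of 0.191 was applied to both libraries. Scaling factors came from edgeR 4.0.16. The intervals were tested on simulated independent Poisson counts. These lack the clustering of UMIs in few barcodes, so the check does not cover it.

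Members, gene lists and markers were chosen with earlier results of these data known. Named genes were the 9 members, the 12 genes with the highest CPM ratio in barcodes of at least 3 members, the 4 genes with most UMIs there from each list, and the cytoplasmic dyneins, and others are said to be chosen after their values were seen or were named because a count turned on them. Alternatives were other scalings, barcode filters, thresholds, gates, depths and member sets.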

Additional observations from a re-analysis of the deposited data

How the results depend on the processing

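The log2 ratio of the 9 genes between the libraries was 3.88, and it was 3.72 with TMM scaling, 3.70 with median-of-ratios scaling, 3.04 without barcodes of at least 3 members, 2.72 without those of at least 8, and 1.84 without those of at least 8 or of at least 10 Ovgp1 UMIs. In the epithelial class it was 5.44, and 4.21 with squamous barcodes counted in, 3.91 without barcodes of at least 8 members and 2.13 without these and the Ovgp1-rich ones. The share of barcodes with at least 3 members, 0.285% in DOX plus AMH and 0.0324% in DOX, was 1.29% and 0.313% at a minimum of 2, 0.173% and 0% at 4, and 0.111% and 0% at 8. Those barcodes held 58.2% of member UMIs in DOX plus AMH and 24.7% in DOX. The share was 66.3% and 33.1% at a minimum of 2, 56.3% and 0% at 4, 55.5% and 0% at 8, and 78.4% and 0.621% without Ovgp1. In DOX plus AMH it was also 61.1% under the stricter barcode filter and 56.6% without Dnah5 and Dnah6. Detection at a fixed depth, 3.14% in DOX plus AMH and 0.949% in DOX, was 2.12% and 0.452% at 1000 UMIs, 5.47% and 1.97% at 5000, and 11.5% and 5.35% unthinned. Of the listed cilia genes, 57 were 2-fold higher, and 17 without the barcodes of at least 8 members. The number 2-fold lower was 0, and became 1 in that setting and 1 with median-of-ratios scaling. The cause of these shifts beyond their construction was not tested. Neither the summed ratios nor the single members' ratios over whole libraries changed sign under these alternatives, while 12 of 91 listed cilia genes did without the barcodes of at least 8 members. The single members' ratios moved beyond counting error in 29 of 72 values, 27 of them without the richest barcodes. No paired analysis was possible because each group is 1 library. With 1 library each, the spread between animals and between pools was not measured, so no interval here covers it.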
